A study of Mus musculus with 15 samples.

Results

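A set of 9 genes used as markers of resident macrophages was followed in mouse forelimb joint tissue: Timd4, Lyve1, Folr2, Vsig4, Cx3cr1, Mrc1, Cd163, Trem2 and Retnla. They were chosen by gene symbol, each matched 1 row of the count table, and they make up 9 of its 26688 genes. Polyadenylated RNA came from wild-type male DBA/1 mice aged 8 weeks in 3 groups of 5 libraries. The healthy group was not immunized. The CIA group had collagen-induced arthritis, an autoimmune joint disease raised with bovine type II collagen in Freund's adjuvant, and its mice had passed an arthritis index of 5. The CIA+F20 group had the same arthritis and received F20, a compound known here by its code name, at 10 mg/kg by mouth every day for 21 days. Both forelimbs of a mouse were taken from the elbow down, skin and most muscle were cut away, and the tissue left was bulk tissue with joint capsule, synovium and soft tissue, so no macrophages were sorted. No vehicle for the CIA group is stated in the sources used here, and the labels do not say whether libraries are separate mice, so p-values measure how far these libraries spread.

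Resident macrophages of the joint are long-lived tissue cells that clear dead cells and debris. In mice, those of the synovial lining form a tight cell layer facing the joint cavity and are known for Cx3cr1, the receptor of the chemokine fractalkine, Trem2, a receptor for lipids that signals through the adaptor Tyrobp, and Vsig4, a complement receptor. Macrophages of the deeper synovium and of many other tissues are known for Mrc1, the mannose receptor, Cd163, which takes up haemoglobin, Lyve1, a hyaluronan receptor, Folr2, a folate receptor, Timd4, which binds phosphatidylserine on dying cells, and Retnla, a secreted protein induced by interleukin 4 and interleukin 13 through STAT6. None of the 9 genes is restricted to macrophages of the joint lining, and bulk RNA cannot place a transcript in the lining.

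The windows of the 2 members whose CPM did not overlap between groups in both CIA versus healthy and CIA+F20 versus CIA, Retnla and Trem2, are printed to show the sequence next to their start sites. RefSeq promoters were matched for 8 of the 9 members (9 windows, Lyve1 having no entry), and each window printed holds the 250 bases before the start on the GRCm38.p6 build, which differs from the GRCm39 build of the counts and, like it, is of the C57BL/6J strain, not DBA/1. Capitals mark matches to 5 motifs searched on both strands: the PU.1 core GAGGAA, the Maf motif TGCTGA, the C/EBP motif TTGCNNAA, the STAT motif TTCNNNGAA, and the STAT6 motif, which is the same with 4 N. No capitals overlap.
Retnla (chr16:48842359-48842608, plus strand): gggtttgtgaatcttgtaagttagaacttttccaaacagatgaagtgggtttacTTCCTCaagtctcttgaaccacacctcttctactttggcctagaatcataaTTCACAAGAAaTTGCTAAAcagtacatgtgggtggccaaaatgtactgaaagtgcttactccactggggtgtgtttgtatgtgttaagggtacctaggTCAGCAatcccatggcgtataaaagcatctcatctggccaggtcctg
Trem2 (chr17:48346151-48346400, plus strand): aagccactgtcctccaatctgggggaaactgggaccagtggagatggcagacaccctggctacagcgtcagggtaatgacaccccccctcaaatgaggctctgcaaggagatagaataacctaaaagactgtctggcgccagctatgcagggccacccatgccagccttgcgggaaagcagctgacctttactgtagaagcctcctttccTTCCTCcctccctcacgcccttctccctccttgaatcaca
The Retnla window held a PU.1 core on the minus strand 196 to 191 bases before the start. Its STAT6 match lay at 145 to 136 bases, its C/EBP match at 134 to 127 bases and its Maf motif, on the minus strand, at 47 to 42 bases before the start. The Trem2 window held 1 match, a PU.1 core on the minus strand at 40 to 35 bases before the start. Of 32851 promoters of this length, 23.3% hold the PU.1 core, 16.1% the Maf motif, 9.56% the C/EBP motif, 7.02% the STAT motif and 5.85% the STAT6 motif. Among the other members, Mrc1 had 3 PU.1 cores and Vsig4 had 2, Timd4 had 2 Maf motifs and Folr2 had 1 in each of its 2 windows, while Cx3cr1 and Cd163 had no match. A match describes the letters of the window and is not evidence of binding.

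Libraries held 18627303 (healthy 4) to 34247317 (healthy 5) counted reads. Macrophage signal differed across the groups. A reference list of 13 macrophage genes that holds none of the members summed to 121 ± 36.5 CPM (counts relative to library sizes that were scaled by TMM) in healthy joints, 381 ± 165 in CIA joints and 177 ± 21.0 with F20 (SD, n = 5). In CIA versus healthy 12 of the 13 were higher and none was lower, and in CIA+F20 versus CIA 11 were lower and none was higher, at an edgeR adjusted p under 0.05 (a "call" below). Skeletal muscle RNA moved the other way, with summed CPM of 17 muscle genes at 116000 to 138000 in healthy, 51700 to 117000 in CIA and 105000 to 131000 in CIA+F20. Among healthy libraries, healthy 3 held the most RNA of 9 neutrophil genes (706 summed CPM, group median 88.4) and healthy 4 the most of natural killer and T cell genes (44.0, group median 0.533). With both left out, a choice made after seeing the data, 4 members were called in CIA versus healthy, 3 in CIA+F20 versus CIA and 0 in CIA+F20 versus healthy, as with them. In bulk samples, fewer cells of a type and less RNA per cell cannot be told apart.

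In arthritic joints the 9 markers did not move together. Trem2, Cx3cr1 and Mrc1 rose, Retnla fell, and Lyve1, Vsig4, Cd163, Timd4 and Folr2 did not pass the test. The 3 members called higher stand beside 26% of the 15770 genes tested, and the 1 called lower beside 19.5%, so these counts are near the background. In CIA+F20 versus CIA, Retnla rose and Trem2 and Cx3cr1 fell, with 14.1% of all genes called higher and 15.5% called lower, again near the background. In CIA+F20 versus healthy none of the 9 was called, and 0% of all genes were called. At an unadjusted p under 0.05 that edgeR test gave 1388 genes (8.8%) and 1 member, Trem2, and DESeq2 called 118 genes and none of the 9. The members' median log2 fold change was 0.07 in CIA versus healthy, equal to that of all genes tested at 0.07. It was 0.06 against -0.06 for all genes in CIA+F20 versus CIA, and 0.48 against 0.01 in CIA+F20 versus healthy.

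**Figure D1:**
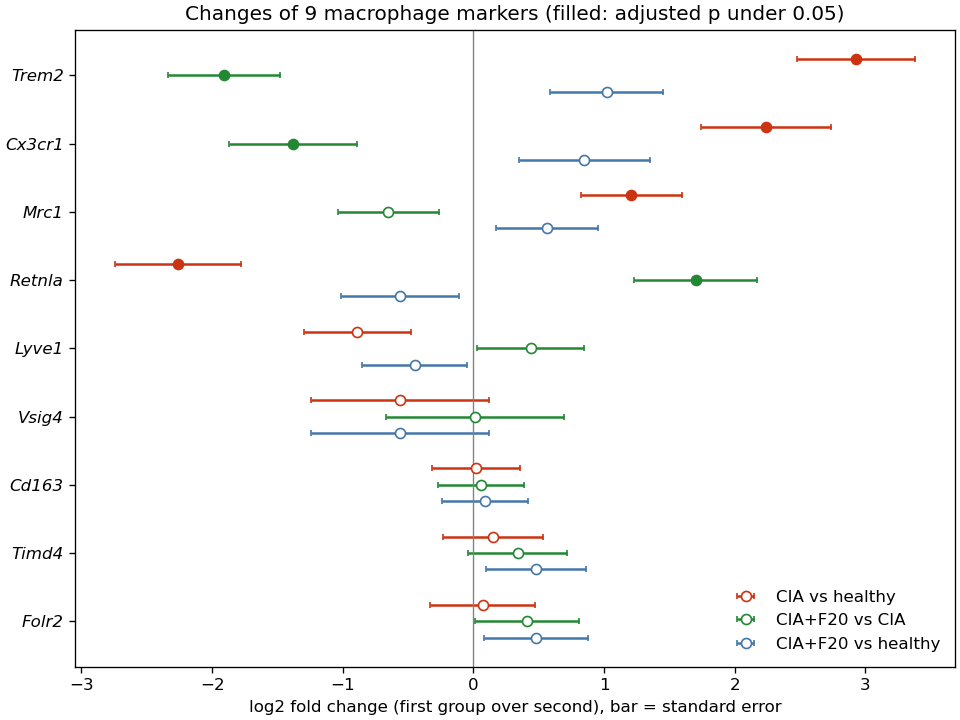
Log2 fold change of each of the 9 markers (x axis) in 3 comparisons, with bars of 1 standard error from the edgeR fit of 15 libraries; filled points have an adjusted p under 0.05. Trem2 and Cx3cr1 lie right of 0 in CIA versus healthy and left of it in CIA+F20 versus CIA, Retnla does the reverse, and no CIA+F20 versus healthy point is filled.

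Trem2 (ENSMUSG00000023992, GRCm39 chr17:48653429-48661175, plus strand, protein-coding) showed the largest change of the 9. Healthy libraries 1 to 5 had 1.56, 2.79, 2.40, 0.697 and 0.695 CPM, and CIA libraries 1 to 5 had 17.6, 21.2, 9.14, 7.18 and 7.76 CPM. CIA+F20 libraries 1 to 5 had 2.48, 1.92, 3.54, 5.20 and 3.54 CPM. Every CIA library lay above every healthy and every CIA+F20 library, whereas the healthy and CIA+F20 groups overlapped. The rise in CIA was 7.61-fold (log2 2.93 ± 0.45 SE, edgeR adjusted p = 0.00038), and the level in CIA+F20 was lower than in CIA by 1.91 ± 0.43 on the log2 scale (edgeR adjusted p = 0.00725). CIA+F20 versus healthy gave log2 1.02 ± 0.43 with an edgeR adjusted p of 0.508.

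Tyrobp, the adaptor through which Trem2 signals, had 3.30 ± 2.33 CPM in healthy joints, 26.4 ± 13 in CIA joints and 8.77 ± 2.28 with F20 (SD, n = 5). Its log2 fold changes were 2.99 ± 0.43 in CIA versus healthy and -1.59 ± 0.41 in CIA+F20 versus CIA (edgeR adjusted p = 0.000293 and 0.013). Apoe, an apolipoprotein that binds Trem2, had 80.6, 250 and 112 CPM in the same order of groups, a rise of 1.63 ± 0.30 and a change of -1.16 ± 0.30 on the log2 scale (edgeR adjusted p = 0.000936 and 0.0125). Syk, the kinase downstream of Tyrobp, rose by log2 2.21 ± 0.40 in CIA (edgeR adjusted p = 0.000903). Clu, Adam17 and Adam10 were named after their values were seen. Clu, another lipoprotein that binds Trem2, rose by 1.88 ± 0.57 in CIA (edgeR adjusted p = 0.0151) with -1.24 ± 0.56 in CIA+F20 versus CIA (edgeR adjusted p = 0.101). Adam17, a protease that sheds Trem2, gave -0.18 ± 0.09 and 0.11 ± 0.09 (edgeR adjusted p = 0.128 and 0.371). Adam10, the other shedding protease listed, gave 0.90 ± 0.19 and -0.78 ± 0.19 (edgeR adjusted p = 0.00187 and 0.00945). All 6 tested genes of the Trem family were called higher in CIA, and 2 were called lower in CIA+F20 versus CIA. The other member of that pair was Trem1, a receptor that amplifies inflammation in neutrophils and monocytes, at log2 4.20 ± 0.71 and then -1.80 ± 0.60 (edgeR adjusted p = 0.000602 and 0.0376).

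Osteoclasts, the bone-resorbing cells of the same lineage, also use Trem2, and their genes moved with it. Of 12 osteoclast genes 10 were called higher in CIA versus healthy and 10 lower in CIA+F20 versus CIA, and their summed level ran from 78.8 to 130 CPM in healthy, 282 to 879 in CIA and 100 to 201 in CIA+F20. Acp5, the acid phosphatase of osteoclasts, had 8.82 ± 4.15, 111.0 ± 60.9 and 17.7 ± 11.8 CPM (SD, n = 5), so this defining marker was not at 0 in any group. How much of the Trem2 signal came from osteoclasts was not tested. The Trem2 row shares 433 exonic bases with a gene on the other strand, Gm65654, and 3.37% of its 100-base words.

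Cx3cr1 (ENSMUSG00000052336, GRCm39 chr9:119730682-119898945, minus strand, protein-coding) followed Trem2 at a smaller size. Healthy libraries 1 to 5 stood at 1.64, 2.69, 3.34, 0.523 and 0.629 CPM, CIA libraries at 8.30, 17.7, 4.76, 7.51 and 3.94 CPM, and CIA+F20 libraries at 2.67, 2.0, 4.35, 3.55 and 3.58 CPM. All CIA values were above all healthy values, but CIA 5 lay below CIA+F20 3, so the treated and untreated arthritic groups overlapped. Cx3cr1 was 4.72-fold higher in CIA than in healthy (log2 2.24 ± 0.50, edgeR adjusted p = 0.00294). CIA+F20 versus CIA gave log2 -1.38 ± 0.49 (edgeR adjusted p = 0.0443), a call lost when any 1 of 10 of the 15 libraries was left out (CIA 1, 2 or 4, each CIA+F20 library, healthy 1 or 2): without CIA 2 it was -0.92 (edgeR adjusted p = 0.151). CIA+F20 versus healthy gave 0.85 ± 0.50 (edgeR adjusted p = 0.675).

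Cx3cl1, the membrane-bound chemokine that Cx3cr1 recognizes, rose with its receptor. Its level went from 4.98 ± 0.793 CPM in healthy joints to 11.6 ± 4.55 in CIA, against 6.59 ± 1.07 with F20 (SD, n = 5), a log2 change of 1.22 ± 0.22 and then -0.82 ± 0.22 (edgeR adjusted p = 0.000811 and 0.0142). Recruited monocytes, natural killer cells, T cells and dendritic cells also use Cx3cr1. Of 13 tested genes listed for recruited monocytes 11 were called higher in CIA and none lower, led by Spp1, Itgam and Ccr2, and 5 were called lower in CIA+F20 versus CIA. The summed level of this list was 115 to 883 CPM in healthy, 756 to 2190 in CIA and 361 to 779 in CIA+F20, and which cells made this RNA was not tested. Dendritic cell genes, led by Itgax, H2-Aa and H2-Ab1, summed to 44.7 to 85.7, 151 to 336 and 108 to 122 CPM, with 7 of 9 called higher and 1 (Zbtb46, named after its value was seen) lower in CIA. Genes of natural killer and T cells summed to 0.477 to 44.0, 3.95 to 24.6 and 3.28 to 6.27 CPM, and 3 of the 4 tested were called higher (Klrk1, Nkg7 and Cd4). Ccr2, the receptor by which monocytes leave the marrow, had 5.60, 64.7 and 20.1 CPM, and the part of these cells in the Cx3cr1 result was not tested.

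Mrc1 (ENSMUSG00000026712, GRCm39 chr2:14234203-14336868, plus strand, protein-coding) rose less. Its healthy libraries 1 to 5 had 10.9, 15.9, 15.9, 3.02 and 7.91 CPM, its CIA libraries 17.6, 49.6, 16.9, 24.9 and 15.6 CPM, and its CIA+F20 libraries 18.2, 11.2, 15.2, 18.9 and 16.2 CPM. CIA 2 stood far above all others, and CIA 5 lay just below the higher healthy libraries, so CIA and healthy overlapped. The log2 fold change in CIA versus healthy was 1.21 ± 0.39 (edgeR adjusted p = 0.0218), and without CIA 2 it was 0.80 (edgeR adjusted p = 0.084). It was 1.11 without healthy 5 (edgeR adjusted p = 0.0548) and 1.19 with the 2 groups fitted alone (edgeR adjusted p = 0.0593). CIA+F20 versus CIA gave -0.65 ± 0.39 (edgeR adjusted p = 0.21) and CIA+F20 versus healthy 0.56 ± 0.39 (edgeR adjusted p = 0.76).

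Retnla (ENSMUSG00000061100, GRCm39 chr16:48662914-48664824, plus strand, protein-coding) was the 1 member called lower in CIA. Its CPM in healthy libraries 1 to 5 was 24.7, 36.3, 33.9, 10.1 and 17.2, in CIA libraries 9.68, 1.65, 3.34, 1.89 and 9.15, and in CIA+F20 libraries 14.4, 13.1, 17.7, 18.2 and 19.5. All CIA libraries lay below all others, the closest pair being healthy 4 and CIA 1, and the CIA+F20 values fell within the healthy range. Retnla was 4.78-fold lower in CIA than in healthy (log2 -2.26 ± 0.48, edgeR adjusted p = 0.00203) and 3.24-fold higher in CIA+F20 than in CIA (log2 1.70 ± 0.47, edgeR adjusted p = 0.0175). CIA+F20 versus healthy gave -0.56 ± 0.45 (edgeR adjusted p = 0.816). The CIA+F20 libraries spread 1.49-fold from lowest to highest, against 5.86-fold in CIA.

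CIA libraries separated from healthy ones without overlap for 3 members, Trem2, Cx3cr1 and Retnla, where 24.3% of all genes tested did so. Between CIA+F20 and CIA this held for Trem2 and Retnla, with 13.6% of all genes. Between CIA+F20 and healthy it held for none of the members, with 3.25% of all genes.

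**Figure D2:**
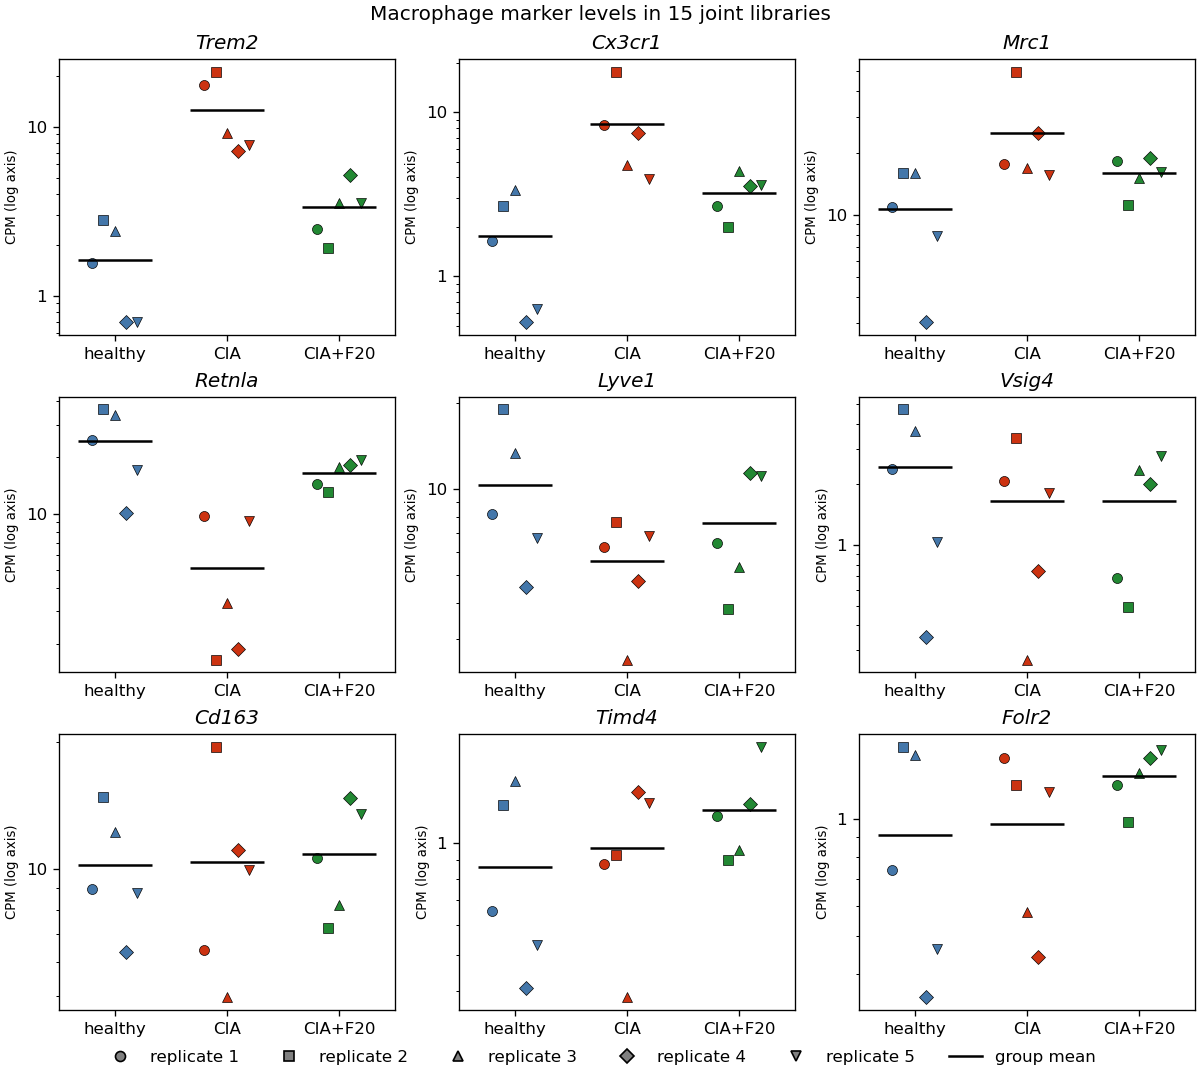
CPM of each marker on a log axis in the 5 libraries of each group. Marker shapes are replicate numbers, which the labels do not give as pairs, and lines are group means. CIA points for Trem2 lie between 7.18 and 21.2 CPM, above all others, and those for Retnla between 1.65 and 9.68 CPM, below all others.

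Of 9 tested genes of type 2 cytokine signalling 6 were called higher in CIA and none lower, and 4 were called lower in CIA+F20 versus CIA. Il13ra1, a subunit of the interleukin 13 receptor, rose by log2 2.39 ± 0.41 and Il4ra, the chain common to the interleukin 4 and 13 receptors, by 2.40 ± 0.58 (edgeR adjusted p = 0.000663 and 0.00444). Il1rl1, the receptor of interleukin 33, rose by 1.71 ± 0.41 (edgeR adjusted p = 0.00414). Of the cytokines themselves, named after their values were seen, Il4 gave -0.18 ± 0.25 in CIA versus healthy and 0.07 ± 0.25 in CIA+F20 versus CIA (edgeR adjusted p = 0.585 and 0.846), and Il13 had at most 3 reads in a library and was below the filter. Within the resistin-like family, Retnlg, which is made by neutrophils, rose in CIA from 4.65 ± 5.72 to 53.7 ± 44.0 CPM (SD, n = 5; log2 3.51 ± 0.71, edgeR adjusted p = 0.00164), opposite to Retnla. Retn, named after its values were seen and also on the adipocyte list, had the signs of Retnla without a call. It gave log2 -1.59 ± 0.71 in CIA versus healthy and 1.16 ± 0.71 in CIA+F20 versus CIA (edgeR adjusted p = 0.0792 and 0.215). All 9 neutrophil genes were called higher in CIA.

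Retnla is also made in adipose tissue and by eosinophils. Of 10 adipocyte genes none was called in CIA versus healthy or in CIA+F20 versus CIA, and their summed level overlapped between all groups at 1970 to 3730 CPM in healthy, 1250 to 4410 in CIA and 2210 to 3740 in CIA+F20. The median summed level was 2920, 1350 and 2740 CPM in that order, and the list's median log2 fold change was -0.49 in CIA versus healthy and 0.46 in CIA+F20 versus CIA, the signs of Retnla. Eosinophil genes were scarce, at 0.164 to 3.43, 2.99 to 25.4 and 1.33 to 26.9 summed CPM, with medians of 1.18, 3.3 and 2.02. Of the 4 tested, 3 were called higher in CIA (Siglecf, Ccr3 and Epx), against the direction of Retnla. Epx was just under the threshold (edgeR adjusted p = 0.0499), at 0.0 to 5.88 CPM in CIA. The share of Retnla RNA from either cell type was not tested.

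Lyve1 (ENSMUSG00000030787, GRCm39 chr7:110449814-110462446, minus strand, protein-coding) did not pass the test. Healthy libraries 1 to 5 gave 8.15, 19.0, 13.4, 4.53 and 6.72 CPM, CIA libraries 6.27, 7.66, 2.53, 4.77 and 6.84 CPM, and CIA+F20 libraries 6.47, 3.80, 5.34, 11.4 and 11.1 CPM. Healthy 4 and healthy 5 lay within the CIA range and the 3 groups overlapped. CIA versus healthy gave log2 -0.89 ± 0.41 (edgeR adjusted p = 0.0863), and without healthy 4 it was -1.08 (edgeR adjusted p = 0.0396). CIA+F20 versus CIA gave 0.44 ± 0.41 (edgeR adjusted p = 0.415).

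Lymphatic endothelium is a second source of Lyve1. Of 11 lymphatic genes 3 were called higher and 2 lower in CIA (Sox18 and Mmrn1 among them, named after their values were seen), and their summed level was 82.9 to 117 CPM in healthy, 82.7 to 165 in CIA and 91.7 to 110 in CIA+F20. Prox1, the transcription factor that sets lymphatic identity and is also made in muscle, fell by 1.22 ± 0.31 on the log2 scale in CIA (edgeR adjusted p = 0.00599) and rose by 1.31 ± 0.31 in CIA+F20 versus CIA (edgeR adjusted p = 0.00929). Its group levels were 8.34 ± 2.98, 3.59 ± 1.58 and 8.94 ± 2.38 CPM (SD, n = 5). Foxc2, a factor of lymphatic valves, and Pdpn, which synovial fibroblasts also make, rose in CIA by 1.33 ± 0.33 and 2.47 ± 0.63 (edgeR adjusted p = 0.00473 and 0.00567). The part of lymphatic vessels in the Lyve1 values was not tested. Has3, a synthase of hyaluronan, the ligand of Lyve1, fell by 1.07 ± 0.25 on the log2 scale in CIA and was higher in CIA+F20 than in CIA by 0.92 ± 0.25 (edgeR adjusted p = 0.00356 and 0.0154, named after its values were seen). The other synthases were not called: Has1 gave 1.20 ± 0.57 and -1.24 ± 0.57, and Has2 1.19 ± 0.65 and -0.94 ± 0.64 (edgeR adjusted p 0.0963 to 0.269). Has3 was the 1 gene called lower in CIA among 17 tested ligands, adaptors and sheddases of the markers, of which 12 were called higher. In CIA+F20 versus CIA 9 of them were called lower and 1 higher.

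Vsig4, Cd163, Timd4 and Folr2 gave no call in any comparison, and their levels set how firmly that can be read. Cd163 (ENSMUSG00000008845, GRCm39 chr6:124281615-124307486) was the best covered, with 109 to 591 reads per library and 10.2 ± 3.32, 10.4 ± 5.69 and 10.9 ± 3.24 CPM in healthy, CIA and CIA+F20 (SD, n = 5). Its log2 change in CIA versus healthy was 0.02 ± 0.34 (edgeR adjusted p = 0.965), with bounds of 2 SE at -0.65 and 0.69. Hp, haptoglobin, which binds free haemoglobin, rose by log2 2.64 ± 0.64, and Hmox1, which breaks down haem, by 3.68 ± 0.68 (edgeR adjusted p = 0.0045 and 0.00101). Hp ran from 6.1 to 51.2 CPM in healthy and 27.4 to 267 in CIA, and Hmox1 from 7.26 to 11.1 and 14.3 to 238. In CIA+F20 versus CIA they fell by 1.83 ± 0.62 and by 2.90 ± 0.66 on the log2 scale (edgeR adjusted p = 0.0389 and 0.00761). Of 7 erythroid genes 6 were called higher in CIA, and their summed level was 72.4 to 937 CPM in healthy, 234 to 2720 in CIA and 526 to 1430 in CIA+F20.

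Vsig4 (ENSMUSG00000044206, GRCm39 chrX:95290809-95337044) was the most uneven marker within a group. It ranged from 0.349 to 4.73 CPM in healthy (13.6-fold), from 0.269 to 3.40 in CIA (12.7-fold) and from 0.491 to 2.76 in CIA+F20 (5.62-fold), on 6 to 139 reads. Its change in CIA versus healthy was log2 -0.56 ± 0.68 (edgeR adjusted p = 0.518), with 2 SE bounds of -1.92 and 0.80.

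Timd4 (ENSMUSG00000055546, GRCm39 chr11:46701627-46735159) and Folr2 (ENSMUSG00000032725, GRCm39 chr7:101489195-101506401) had the fewest reads. Timd4 had 7 to 53 reads per library, at 0.407 to 1.46 CPM in healthy, 0.384 to 1.37 in CIA and 0.900 to 1.81 in CIA+F20. Folr2 had 6 to 45 reads, at 0.349 to 1.53, 0.444 to 1.43 and 0.982 to 1.5 CPM. The groups of both genes overlapped fully in CIA versus healthy, with log2 changes of 0.15 ± 0.38 and 0.07 ± 0.40 (edgeR adjusted p = 0.775 and 0.906), bounded by 2 SE at -0.62 and 0.91 for Timd4 and at -0.74 and 0.87 for Folr2. The Folr2 row is uncertain, because 975 of its 1593 exonic bases overlap genes on the other strand, and 36.8% of its 100-base words occur in Gm10602, which itself had 21 to 55 reads. Of 13 tested genes of apoptotic cell uptake, the role of Timd4, 7 were called higher in CIA and 1 lower, led by Anxa1, Pros1 and C1qa. The 1 called lower, named after its value was seen, was Cd36, a fatty acid receptor that muscle also makes (log2 -0.70 ± 0.20, edgeR adjusted p = 0.0124). The other genes of the folate receptor family, Folr1 and Izumo1r, were below the filter on low counts.

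CPM per kilobase of exon sets levels of different genes side by side only roughly. The length counts every exon annotated for a gene, 4946 bases for Trem2 and 618 for Retnla, not the transcripts made in these joints. A gene whose annotated exons are little used reads too low, so the order of genes below is tentative. On this scale Retnla stood highest in every group, at 39.5 ± 17.9 in healthy joints, 8.32 ± 6.40 in CIA joints and 26.8 ± 4.41 with F20 (SD, n = 5). In healthy joints Lyve1 (2.49 ± 1.40), Cd163 (1.84 ± 0.599), Vsig4 (1.64 ± 1.22) and Mrc1 (1.37 ± 0.702) came next, within one another's spread. Below them were Folr2 (0.571 ± 0.349), Cx3cr1 (0.379 ± 0.267), Trem2 (0.329 ± 0.194) and Timd4 (0.218 ± 0.118), which also overlapped. In CIA the order after Retnla was Mrc1 (3.18 ± 1.82), Trem2 (2.54 ± 1.29), Cd163 (1.87 ± 1.03) and Cx3cr1 (1.81 ± 1.18), again within their spreads, followed by Lyve1 (1.35 ± 0.485), Vsig4 (1.12 ± 0.825), Folr2 (0.608 ± 0.271) and Timd4 (0.244 ± 0.0983). In CIA+F20 the order after Retnla was Mrc1 (2.04 ± 0.389), Cd163 (1.96 ± 0.584), Lyve1 (1.83 ± 0.823), Vsig4 (1.12 ± 0.685) and Folr2 (0.808 ± 0.127), with Cx3cr1 (0.694 ± 0.195), Trem2 (0.674 ± 0.254) and Timd4 (0.308 ± 0.0910) below.

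The comparisons above are of a marker's share of all RNA in the tissue. Whether a marker moved by more or less than macrophage RNA in general was asked by setting each library's size by the mean log2 CPM of the 13 reference genes, which was 3.58 to 5.12 in CIA against 1.68 to 2.71 in healthy and 2.69 to 3.22 in CIA+F20. On this scale 7 of the 9 markers were called lower in CIA than in healthy: Retnla (log2 -3.95), Lyve1 (-2.75), Vsig4 (-2.49), Cd163 (-2.03), Folr2 (-1.76), Timd4 (-1.65) and Mrc1 (-0.83). Any gene that did not rise as much as the reference falls here, and 88.3% of all genes tested were called lower, with a median of -1.93 for all genes and -1.76 for the members, so this count is near the background. Cx3cr1 moved with the reference (0.23 ± 0.35, edgeR adjusted p = 0.53). Trem2 was called higher (0.97 ± 0.34, edgeR adjusted p = 0.00849), as were 1.8% of all genes, though with Cd68 alone as the reference it gave 0.25 (edgeR adjusted p = 0.474).

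In CIA+F20 versus CIA the same 7 markers were called higher on this scale, where 71.5% of all genes were, with a median of 1.31 for the members and 1.08 for all genes. Retnla moved most (log2 2.65 ± 0.45, edgeR adjusted p = 0.000202). Trem2 (-0.65, edgeR adjusted p = 0.0767) and Cx3cr1 (-0.01, edgeR adjusted p = 0.973) were not called. The call of Mrc1 (0.68, edgeR adjusted p = 0.0435) was lost under 10 of 19 alternatives and that of Vsig4 under 5, leaving out 1 library gave 5 to 7 members called, and Trem2 was called without CIA 4 (-0.78, edgeR adjusted p = 0.0451) and, just under the threshold, without CIA+F20 4 (-0.80). Against the 3 C1q genes as the reference, 2 members were called in place of 7. In CIA+F20 versus healthy Retnla (-1.30), Vsig4 (-1.24), Lyve1 (-1.19) and Cd163 (-0.72) were called lower, beside 57% of all genes, and none of the members was with Cd68 or the C1q genes as the reference. Without CIA+F20 1, 3, 4 or 5, or without healthy 1, 4 or 5, 0 members were called on this scale in that comparison, and the genes called among all tested fell from 9161 to between 0 and 108.

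**Figure D3:**
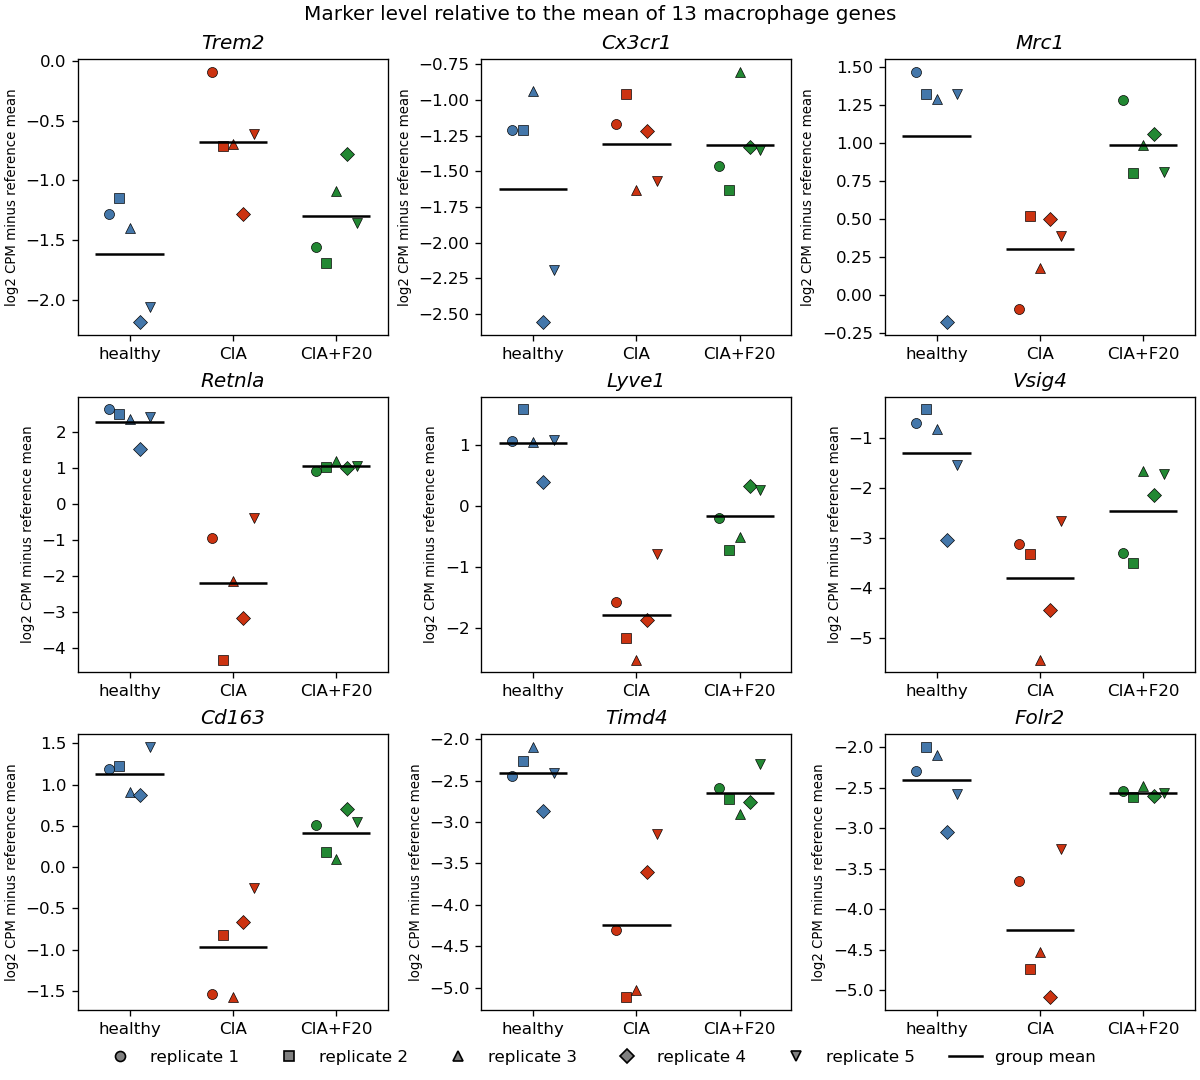
Log2 CPM of each marker minus the mean log2 CPM of the 13 macrophage reference genes, in the 5 libraries of each group; lines are group means and marker shapes replicate numbers. Retnla, Lyve1, Cd163, Timd4 and Folr2 in CIA lie below every healthy library, while Cx3cr1 in CIA lies within the healthy range. The share of all genes that separate in this way was not computed, and 88.3% of all genes tested were called lower on this scale.

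Other genes known from resident macrophages of several tissues mostly did not pass the test. Of 19 tested, 4 were called higher and 1 lower in CIA (median log2 0.25, against 0.07 for all genes), and 1, Tgfbr2, was called lower in CIA+F20 versus CIA. The 3 with the lowest p in CIA versus healthy were Pf4, a platelet chemokine that some resident macrophages make (log2 2.2 ± 0.50, edgeR adjusted p = 0.00305), Tgfbr2, a receptor of transforming growth factor beta (0.46 ± 0.14, edgeR adjusted p = 0.0173), and Gas6, the bridge between dying cells and Mertk (0.35 ± 0.12, edgeR adjusted p = 0.0246). Named after their values were seen, the other 2 called genes were Clec10a, a galactose-binding lectin (1.12 ± 0.39, edgeR adjusted p = 0.0301), and Cd209d, a C-type lectin and the 1 called lower (-1.29 ± 0.50, edgeR adjusted p = 0.0465). Of 13 tested scavenger receptor genes 5 were called higher and 1 lower, led by Clec7a, a receptor for fungal glucans (3.03 ± 0.42), and Msr1, which takes up modified lipoproteins (3.33 ± 0.50; edgeR adjusted p = 0.000256 and 0.000328). Of 11 genes of the synovial lining and joint tissue 2 were called higher in CIA (Pdpn and Col1a1) and 1 lower (Clic5, an ion channel protein that muscle also makes). Of the 2 ligands of the macrophage growth factor receptor Csf1r, Csf1 rose in CIA from 17.5 ± 3.77 to 40.3 ± 18.9 CPM (log2 1.20 ± 0.27, edgeR adjusted p = 0.00279), and Il34 had 4.70 ± 0.842 and 4.75 ± 1.92 CPM (log2 0.01 ± 0.24, edgeR adjusted p = 0.97; SD, n = 5). Csf1 was 21.7 ± 4.75 CPM in CIA+F20 (log2 -0.89 ± 0.27 against CIA, edgeR adjusted p = 0.0238).

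Libraries of one group ranked alike for most markers. Healthy 2 and healthy 3 held the top 2 places among healthy libraries for 9 of 9 markers, and healthy 4 was the lowest for 8, the exception being Trem2. CIA+F20 2 was the lowest of its group for 9 of 9. CIA 2 was the highest of its group for 6 markers but the lowest for Retnla. The macrophage reference moved with most of these ranks, being highest in healthy 2 and 3 (2.67 and 2.71), in CIA 2 (5.12) and lowest of its group in CIA+F20 2 (2.69, mean log2 CPM), but the lowest healthy library was healthy 5 (1.68), not healthy 4 (1.81). What part the amount of macrophage tissue taken had in these ranks was not tested.

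After each gene was centred on its group means, Pearson's r of log2 CPM over the 15 libraries, given as a description because the points share library composition and depth, had a median of 0.71 over the 36 pairs of markers and exceeded 0.5 in 28. The highest was Cx3cr1 with Trem2 at 0.89, and Cx3cr1 with Mrc1 and Lyve1 with Vsig4 both gave 0.88. Retnla gave the lowest values, with r of -0.05 with Cd163, 0.08 with Mrc1 and 0.16 with Cx3cr1, while it reached 0.70 with Folr2. Leaving out healthy 4 and CIA 2 gave a median of 0.64 and changed the order of the pairs. Retnla with Folr2 was then the highest at 0.87, Cx3cr1 with Trem2 gave 0.85, and Retnla gave 0.68 with Vsig4 and 0.58 with Lyve1 and with Trem2, against 0.12 with Cd163, 0.03 with Mrc1 and 0.28 with Cx3cr1.

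**Figure D4:**
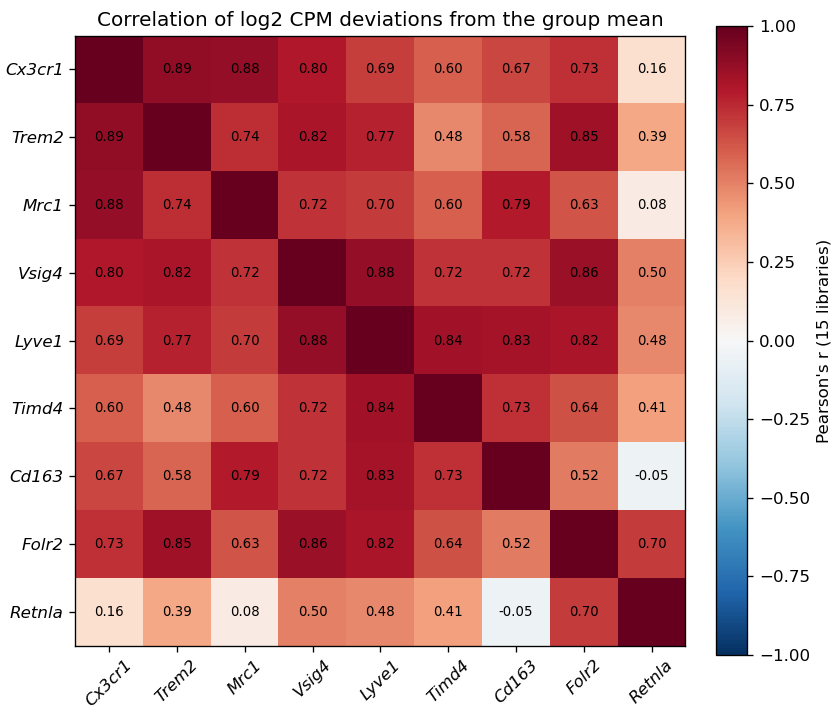
Pearson's r between each pair of the 9 markers over 15 libraries, from log2 CPM after each group's mean was taken off; colour runs from -1 to 1. Most pairs are above 0.5, and the Retnla row is the palest, from -0.05 with Cd163 to 0.70 with Folr2.

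By the same measure over 15 libraries, the 3 genes most like each marker were named, with genes under an average of 1 log2 CPM left out. For Cx3cr1 they included Tlr2 (r = 0.943) and Csf1r (0.941), and for Trem2 they were Csf1r (0.932), Pde1a (0.917) and C1qc (0.909). Mrc1 was most like Adamts5 (0.936), Svep1 (0.935) and Tmem106a (0.934). Retnla was most like Pcsk6 (0.936), Colgalt2 (0.928) and Pla1a (0.903), and Folr2 like Procr (0.906), Pla1a (0.884) and Gfpt2 (0.872). Ifi27l2a came first for Timd4 (0.897), Lyve1 (0.871) and Vsig4 (0.890). Timd4 was next most like Siglec1 (0.887) and Lilra6 (0.876), Lyve1 like Ninj1 (0.846) and Cd163 (0.830), and Vsig4 like Lyve1 (0.883) and Gfpt2 (0.878). Cd163 was most like Ccl6 (0.872), Has2 (0.844) and Pcdhgc3 (0.838).

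The skeletal muscle score of a library, the mean log2 CPM of 17 muscle genes, was 11.47 to 11.77 in healthy and 9.89 to 11.24 in CIA, with no overlap, and 11.28 to 11.64 in CIA+F20. With that score as a covariate none of the 9 markers was called in any comparison, and the genes called among all tested fell from 7175 to 26 in CIA versus healthy and from 4669 to 1 in CIA+F20 versus CIA. The share of muscle in the tissue and the state of the joint cannot be told apart in these groups.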

How the data were processed

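Forelimb joint mRNA of 15 mouse libraries was analysed, 5 per group, with groups taken from the library titles. Per the submitters' processing notes, reads were handled with fastp 0.23.2, HISAT2 2.2.1 and featureCounts 2.0.3 on GRCm39; the sources used here do not give the annotation release, the strand setting or how multimapped reads were treated, so genes that overlap on opposite strands may exchange reads. The deposited values are the authors' raw read counts per gene, not normalized. From them CPM were computed here with TMM scaling (log2 CPM with a prior count of 2).

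Counts were tested in R 4.3.3 with edgeR 4.0.16: filterByExpr (minimum count 10), which left 15770 of 26688 genes, TMM, 1 quasi-likelihood fit of the 3 groups, and Benjamini-Hochberg adjustment over all genes tested. The biological coefficient of variation was 27.8%. The standard error is the absolute log2 fold change over the square root of F. A second fit added the mean log2 CPM of 13 macrophage genes to each library's log size. The main fit was tested on simulated counts of CIA versus healthy. It recovered 16.3% of genes changed 1.5-fold, 51% of those changed 2-fold and 87.5% of those changed 3-fold. In the simulation a change of such small size could miss the call. The simulation had only healthy and CIA libraries, with 48 or 49 changed genes at each fold size among 15024 genes run. The real comparison called 7175 of 15770 genes, so these rates do not carry over to it. The second fit was simulated only with its true offset supplied, so an offset estimated from the 13 genes was not tested. Exon lengths and overlaps came from GENCODE vM39, where 26314 genes of the table were found.

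The members, gene lists and tests were chosen with earlier results of these data known. Named genes were drawn from the 9 members, 12 fixed genes, up to 3 called genes of the lowest p per list, and the 3 genes most like each member, of which 1 is not reported here. Alternatives were DESeq2 1.42.0 (its test and its size factors), no filter or a stricter filter, other library sizes, 2 groups alone, a replicate block, a muscle covariate, other macrophage references and each library left out. No label says that replicate numbers pair the libraries. Same-numbered libraries of different groups had correlations of deviations from -0.395 to 0.243, over 0.1 in 3 of 15 pairs. Differently numbered libraries were not compared, so these values have no baseline and do not settle the matter. No pair of libraries in a group looked like a duplicate (chi-square per gene 22 to 272).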

Additional observations from a re-analysis of the deposited data

Results flagged for a closer look

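Of 27 groups of 5 CPM values, 1 held a library far from the others: Mrc1 in CIA 2, at 49.6 CPM, where the next CIA library had 24.9 CPM. Chance flags about 1 in 20 such groups. CIA 2 also had the highest macrophage reference level of the 15 libraries (5.12, mean log2 CPM).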

How the results depend on the processing

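Trem2 and Retnla kept direction and call in CIA versus healthy and in CIA+F20 versus CIA under every alternative except the muscle covariate, which left 0 members called in both (Trem2 1.98 and -1.09, Retnla -1.50 and 1.07, log2; edgeR adjusted p 0.171 to 0.71). The calls of Cx3cr1 in CIA+F20 versus CIA and of Mrc1 in CIA versus healthy were lost under 14 and 5 alternatives; that of Cx3cr1 was lost without any 1 of 10 of the 15 libraries. Cx3cr1 was -1.37 with no filter on low counts (edgeR adjusted p 0.0591) and turned to 0.072 with the muscle covariate. With a replicate block, for which the labels give no pairing, it was -1.19 (edgeR adjusted p 0.0972), and 4 and 2 members were called in these comparisons. The muscle covariate also turned Mrc1 in CIA+F20 versus CIA to 0.28, Cd163 in CIA versus healthy to -0.76 and in CIA+F20 versus healthy to -0.022, Folr2 in CIA versus healthy to -0.021 and Timd4 to -0.33. Without healthy 4 and CIA 2 (chosen after seeing the data), Cd163 was -0.47 in CIA versus healthy and -0.042 in CIA+F20 versus healthy. Folr2 was then -0.22 and Mrc1 0.57 (edgeR adjusted p 0.075) in CIA versus healthy. In that setting Lyve1 gained a call in CIA versus healthy (-1.21, edgeR adjusted p 0.0402), and Cx3cr1 lost its call in CIA+F20 versus CIA (-0.92, edgeR adjusted p 0.107). Cd163 in CIA versus healthy was -0.069 without healthy 3 and 4 (also chosen after seeing the data) and -0.078 with the block. Leaving out 1 library at a time, Cd163 ran from -0.34 to 0.20 in CIA versus healthy, -0.11 to 0.42 in CIA+F20 versus CIA and -0.048 to 0.26 in CIA+F20 versus healthy. In CIA versus healthy Folr2 ran from -0.12 to 0.33 and Timd4 from -0.018 to 0.41, and Vsig4 in CIA+F20 versus CIA from -0.27 to 0.45. The cause of these turns was not tested.

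On the scale relative to macrophage genes, the C1q genes as the reference gave 5, 2 and 0 members called in CIA versus healthy, CIA+F20 versus CIA and CIA+F20 versus healthy, in place of 8, 7 and 4. Cd68 as the reference or the replicate block gave 0 in CIA+F20 versus healthy, and leaving out 1 library gave 0 to 4. With Cd68, Cx3cr1 turned to -0.50 in CIA versus healthy and 0.79 in CIA+F20 versus CIA, and Trem2 to 0.18 in the latter. With the C1q genes, Folr2, Mrc1 and Timd4 turned to 0.20, 0.23 and 0.14 in CIA+F20 versus healthy. Cx3cr1 in CIA+F20 versus CIA ran from -0.17 to 0.085 over libraries left out.

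Over all genes, CIA+F20 versus CIA gave 4669 calls, 2674 with the 2 groups alone, 2883 without CIA 2, 3091 without CIA+F20 4 and 2762 without healthy 4 and CIA 2. CIA+F20 versus healthy gave 107 without healthy 3. The relative scale gave 11325 calls in CIA+F20 versus CIA (2565 with the C1q genes) and 9161 in CIA+F20 versus healthy (188 with the C1q genes, 0 with Cd68, 281 with the block, and 0 to 108 without any 1 of CIA+F20 1, 3, 4 and 5 and healthy 1, 4 and 5). Depth limits Timd4, Folr2 and Vsig4, with as few as 6 or 7 reads in a library.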
